A study of Mus musculus with 6 samples.

Results

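The genes described here are 10 genes of the eicosanoid pathway, enzymes and 1 activating protein, measured in the skin of bleomycin-exposed mice. They were chosen by name: Pla2g4a, Ptgs1, Ptgs2, Ptgds, Ptges, Ptgis, Hpgd, Alox5, Alox5ap and Alox15 were looked up by their mouse NCBI gene numbers, and all 10 were found among the 27179 genes of the count table. The mice were BALB/c females, 6 to 8 weeks old, and total RNA of their skin was sequenced after depletion of ribosomal RNA. Skin exposed to bleomycin and treated with ajulemic acid (AJA), a synthetic cannabinoid acid, was represented by 3 libraries. Skin exposed to bleomycin and given EHP-101, a drug candidate derived from cannabidiol, had 1 library, and so did skin exposed to bleomycin alone and control skin. Bleomycin, which breaks DNA, brings about a skin fibrosis in mice that serves as a model of scleroderma, and it was shared by all groups but the control. The labels used here give no dose, no duration and no site of the biopsy. They do not say whether the AJA libraries came from separate mice, so the spread between these libraries need not be that between mice.

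Eicosanoids are short-lived lipid signals made from arachidonic acid, which phospholipase A2 frees from membranes. Cyclooxygenases turn the acid into prostaglandin H2, and terminal synthases convert that into prostaglandins D2, E2 and prostacyclin. Lipoxygenases lead instead to leukotrienes, which recruit leukocytes, and to lipoxins and related mediators that help to end inflammation. In skin, these lipids act in inflammation, in the epidermal barrier and in the hair cycle, and ajulemic acid has been studied as a drug that shifts their balance in cultured cells and in inflammation models.

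The libraries held between 14291592 and 19837682 counts. The depth differed widely between the 10 genes, with between 1735 and 3341 counts per library for Ptgs1 and between 10 and 38 for Ptgis. Expression is given as CPM (counts scaled to the size of the library, corrected by TMM) within a gene, and as RPKM (CPM per kilobase of exon) between genes. Markers of the skin were abundant in every library, with summed levels of at least 5980 CPM over 8 basal keratinocyte genes and at least 3440 CPM over 8 fibroblast genes. The libraries also differed in the summed levels of markers of other tissues. The summed level of 14 hair follicle genes was 7176, 384 and 15996 CPM in the AJA libraries, 6070 CPM in EHP-101, 617 CPM in bleomycin and 8048 CPM in control. The summed level of 14 hepatocyte genes was between 27.3 and 141 CPM with AJA, 761 CPM in EHP-101, 834 CPM in bleomycin and 1216 CPM in control, and that of 10 skeletal muscle genes was highest in EHP-101, at 23313 CPM, and lowest in control, at 8575 CPM. In whole skin, fewer cells of a type and less RNA per cell cannot be told apart.

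Per kilobase of exon, Ptgs1 was the most abundant of the 10 genes in 5 of the 6 libraries and was second to Ptgds in AJA replicate 3. Ptgs1, the constitutive cyclooxygenase (gene 19224, chromosome 2, 36230426 to 36252269 in mm10), was at a median of 55.6 RPKM over the 6 libraries and ranged between 32.5 and 73.5 RPKM. Ptgds, the lipocalin-type prostaglandin D synthase, followed with a median of 16.3 RPKM, then Pla2g4a with 14.4, Ptges with 11.2, Alox5ap with 10.8 and Hpgd with 7.64 RPKM. Alox5 had a median of 3.999 RPKM, Ptgs2 of 1.28, Alox15 of 0.847 and Ptgis of 0.843 RPKM. The range of Ptgs1 over the libraries, in RPKM, lay above those of all the others except Ptgds. The ranges of Ptgds, Pla2g4a, Ptges, Alox5ap and Hpgd overlapped one another, and so did those of Ptgs2, Alox15 and Ptgis, so the order within these sets is not resolved beyond their spread.

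**Figure D1:**
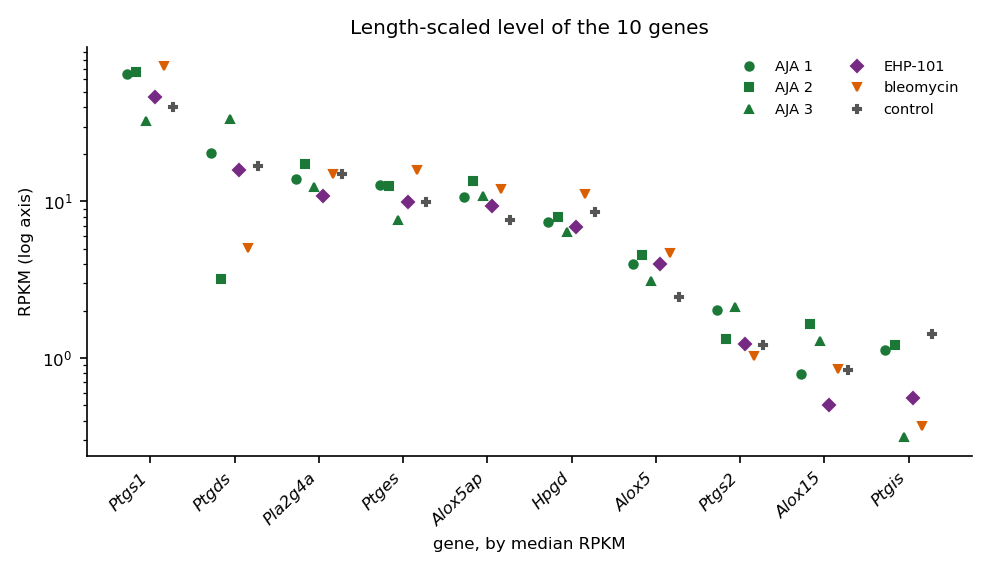
Level of each of the 10 genes in RPKM (log axis), ordered from left to right by the median over the 6 libraries, with 1 symbol per library (AJA, ajulemic acid). Ptgs1 has the highest median, 55.6 RPKM, and Ptgis the lowest, 0.843 RPKM.

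Promoters are shown for the 2 cyclooxygenases, which share an activity but differed in level, for Ptges, which like Ptgs1 was highest in bleomycin and lowest in AJA replicate 3, and for Ptgds, which varied most. Each window runs from 250 bases before to 50 bases after the start given by RefSeq in build GRCm38.p6, which is the C57BL/6J sequence and not that of BALB/c, and is written 5′ to 3′ on the strand of the gene. Capitals mark matches, on either strand, to 5 motifs chosen after the values were seen. These were the TATA box, spelled TATAAA, the E-box, spelled CACGTG, and the core of the M-box that the melanocyte factor MITF binds, spelled CATGTG. The other motifs were the GC box, spelled GGGCGG, and the cAMP response element, spelled TGACGTCA. Of the 10 genes, 7 had a window in the table.
Ptgs1 (chr2:36230176-36230475, plus strand): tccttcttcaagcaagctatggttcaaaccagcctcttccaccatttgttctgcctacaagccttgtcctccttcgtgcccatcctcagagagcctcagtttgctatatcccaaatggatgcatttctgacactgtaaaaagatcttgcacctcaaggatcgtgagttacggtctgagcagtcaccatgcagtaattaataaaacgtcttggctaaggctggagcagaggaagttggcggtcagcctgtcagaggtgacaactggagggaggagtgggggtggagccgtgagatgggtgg
Ptgs2 (chr1:150099781-150100080, plus strand): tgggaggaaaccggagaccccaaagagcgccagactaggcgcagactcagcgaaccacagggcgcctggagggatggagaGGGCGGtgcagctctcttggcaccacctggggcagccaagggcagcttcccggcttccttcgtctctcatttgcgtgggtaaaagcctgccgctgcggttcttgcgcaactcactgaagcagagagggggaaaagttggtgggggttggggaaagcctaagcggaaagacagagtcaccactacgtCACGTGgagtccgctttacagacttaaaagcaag
Ptges (chr2:30903248-30903547, minus strand): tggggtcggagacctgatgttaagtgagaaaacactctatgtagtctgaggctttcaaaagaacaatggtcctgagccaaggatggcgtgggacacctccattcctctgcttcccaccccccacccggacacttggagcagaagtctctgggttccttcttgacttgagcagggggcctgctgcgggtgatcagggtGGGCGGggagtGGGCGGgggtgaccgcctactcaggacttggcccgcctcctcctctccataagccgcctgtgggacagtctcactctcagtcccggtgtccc
Ptgds (chr2:25469700-25469999, minus strand): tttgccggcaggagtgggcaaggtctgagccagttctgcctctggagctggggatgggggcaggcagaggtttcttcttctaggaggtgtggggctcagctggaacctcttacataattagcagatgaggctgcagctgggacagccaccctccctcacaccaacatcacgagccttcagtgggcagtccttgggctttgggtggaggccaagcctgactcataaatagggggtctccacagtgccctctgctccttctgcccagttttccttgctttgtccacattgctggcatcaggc
The Ptgs2 window held 1 E-box, which begins at position 17 counted from the RefSeq start as position 1, and 1 GC box. The Ptges window held 2 GC boxes. The Ptgs1 and Ptgds windows held none of the 5 letter strings. No 2 of the motifs overlapped in these windows. Over all 32851 windows, 7.15% held the E-box, 35.7% the GC box, 13.6% the TATA box, 14.2% the M-box core and 1.79% the cAMP response element. For Ptgs2 the RefSeq start lies 93 bases before the start of the gene in the count table, while the other 3 starts are the same in both.

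**Figure D2:**
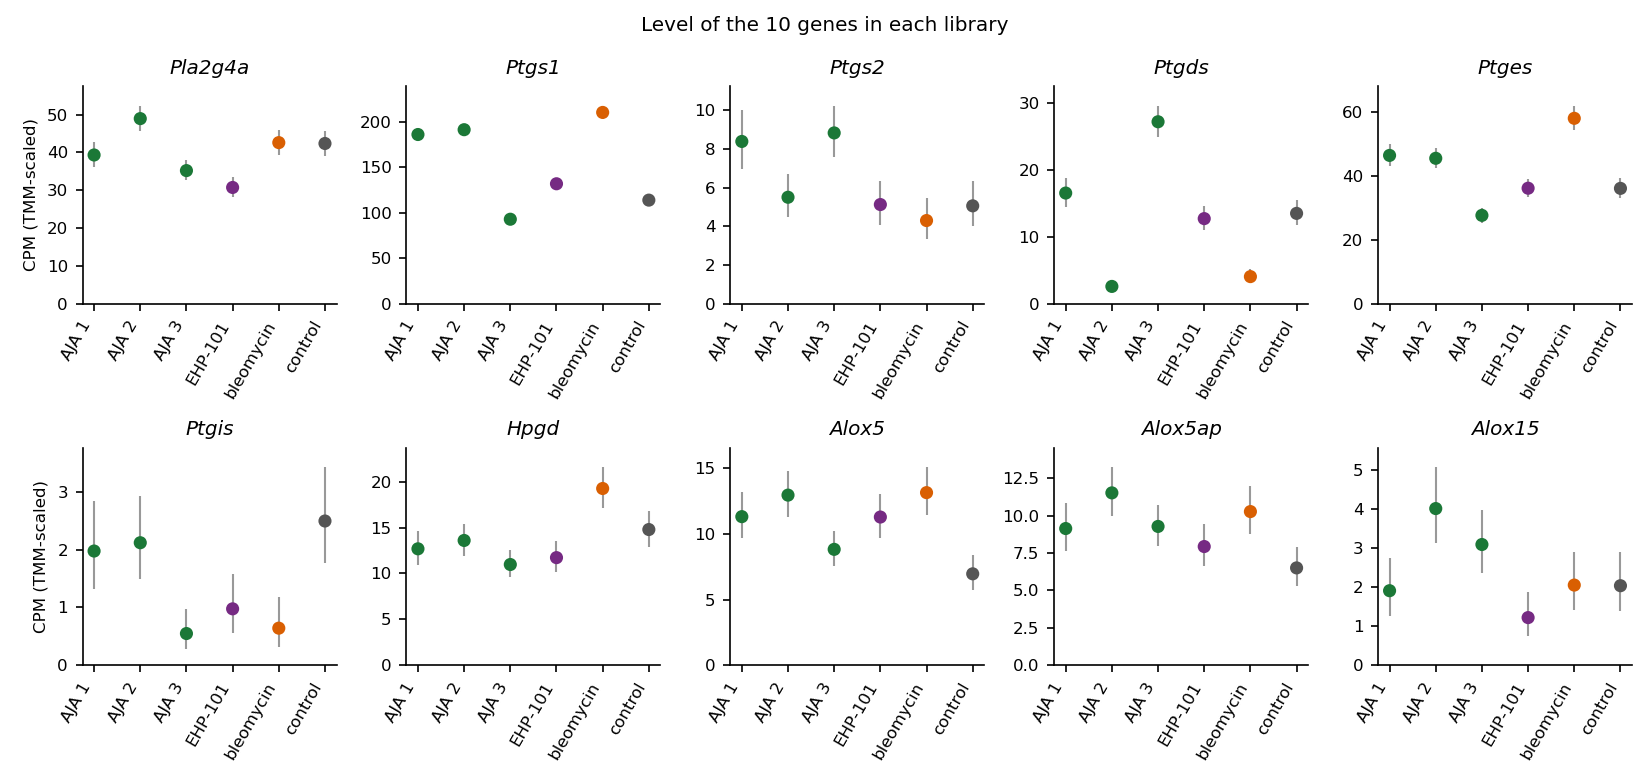
CPM (TMM-scaled, axes from 0) of each gene in the 3 AJA (ajulemic acid) libraries, EHP-101, bleomycin and control; bars show the 95% range that counting alone allows (exact Poisson). Ptgs1, Ptges, Hpgd and Alox5 are highest in bleomycin, and Ptgds is lowest in AJA replicate 2 and bleomycin. Bleomycin is the highest library in 17% of all genes tested.

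Pla2g4a, the cytosolic phospholipase A2 that releases arachidonic acid from membranes (gene 18783, chromosome 1, 149829622 to 149961284), was at 39.3, 49.0 and 35.2 CPM in the AJA libraries, 30.8 CPM in EHP-101, 42.6 CPM in bleomycin and 42.4 CPM in control. The EHP-101 library was the lowest, and both bleomycin and control lay inside the range of the AJA libraries. The log2 fold change was -0.05 (SE 0.24) for AJA over bleomycin, -0.47 (SE 0.30) for EHP-101 over bleomycin and 0.01 (SE 0.30) for bleomycin over control.

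The 2 cyclooxygenases differed in where they were highest. Ptgs1 was at 186, 192 and 93.0 CPM with AJA, 132 CPM in EHP-101, 210.5 CPM in bleomycin and 114 CPM in control. Bleomycin was thus the highest library, as for 17% of all genes tested. AJA replicates 1 and 2 came next, and AJA replicate 3 lay below control. Ptgs1 averaged 157 ± 55.4 CPM (SD, n = 3) with AJA, and its log2 fold change was -0.42 (SE 0.44) over bleomycin and 0.46 (SE 0.46) over control. Suprabasal keratinocyte markers were high and low in the same libraries as Ptgs1, although not in the same order. Their sum over 8 genes was 9150, 9439 and 4658 CPM with AJA, 4986 CPM in EHP-101, 8902 CPM in bleomycin and 5349 CPM in control. This split was not particular to them. AJA replicates 1 and 2 and bleomycin were also the highest libraries in the sums of basal keratinocyte, macrophage, neutrophil and T cell markers. The basal sum was 8386, 7846 and 6895 CPM with AJA, 7514 CPM in EHP-101, 9819 CPM in bleomycin and 5980 CPM in control. The part of these differences in that of Ptgs1 was not tested.

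Ptgs2, the inducible cyclooxygenase (gene 19225, chromosome 1, 150100124 to 150108017), was at 8.39, 5.50 and 8.83 CPM with AJA, 5.13 CPM in EHP-101, 4.30 CPM in bleomycin and 5.06 CPM in control. All 3 AJA libraries were above the 3 single libraries, but AJA replicate 2 was close to EHP-101 and control, and with library sizes unscaled by TMM it was below EHP-101. The counts behind these values ran from 67 to 177. For bleomycin the exact 95% Poisson interval, which covers counting error only, was 3.33 to 5.46 CPM, and for AJA replicate 2 it was 4.46 to 6.72 CPM. The log2 fold change of AJA over bleomycin was 0.82 (SE 0.39, unadjusted p = 0.0902, adjusted p = 0.998 by edgeR's quasi-likelihood test), with a 95% interval of -0.19 to 1.82.

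Among the terminal synthases, Ptges was highest in the bleomycin library, whereas Ptgds and Ptgis were low there. Ptges, the inducible microsomal prostaglandin E synthase (gene 64292, chromosome 2, 30889471 to 30903297), was at 46.3, 45.4 and 27.6 CPM with AJA, 36.1 CPM in EHP-101, 57.9 CPM in bleomycin and 36.0 CPM in control. As with Ptgs1, bleomycin was the highest library, AJA replicate 3 was the lowest and EHP-101 was close to control. The 3 libraries high in Ptges were also the 3 high in the suprabasal keratinocyte sum given above. They were the 3 highest in the basal keratinocyte, macrophage, neutrophil and T cell sums as well, and the part of these differences in Ptges was not tested. Log2 fold changes were -0.54 (SE 0.33) for AJA over bleomycin, -0.68 (SE 0.42) for EHP-101 over bleomycin and 0.68 (SE 0.42) for bleomycin over control.

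Ptgds, which makes prostaglandin D2 and is known as a product of melanocytes (gene 19215, chromosome 2, 25466712 to 25469749), was at 16.5, 2.58 and 27.1 CPM with AJA, 12.7 CPM in EHP-101, 4.04 CPM in bleomycin and 13.5 CPM in control. The AJA libraries held both the lowest and the highest value of the series, 10.5-fold apart, and bleomycin, EHP-101 and control all lay between them. The log2 fold change was 1.93 (SE 1.46) for AJA over bleomycin, with a 95% interval of -2.138 to 5.998, and -1.73 (SE 1.64) for bleomycin over control. Ptgds was high and low in the same libraries as markers of melanocytes, whose sum over 7 genes was 309, 59.9 and 563 CPM with AJA, 283 CPM in EHP-101, 91.4 CPM in bleomycin and 286 CPM in control. The 2 libraries lowest in Ptgds were also the 2 lowest in the hair follicle genes given above, and AJA replicate 3 was the highest in all 3 measures. The part of these marker differences in the level of Ptgds was not tested.

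**Figure D3:**
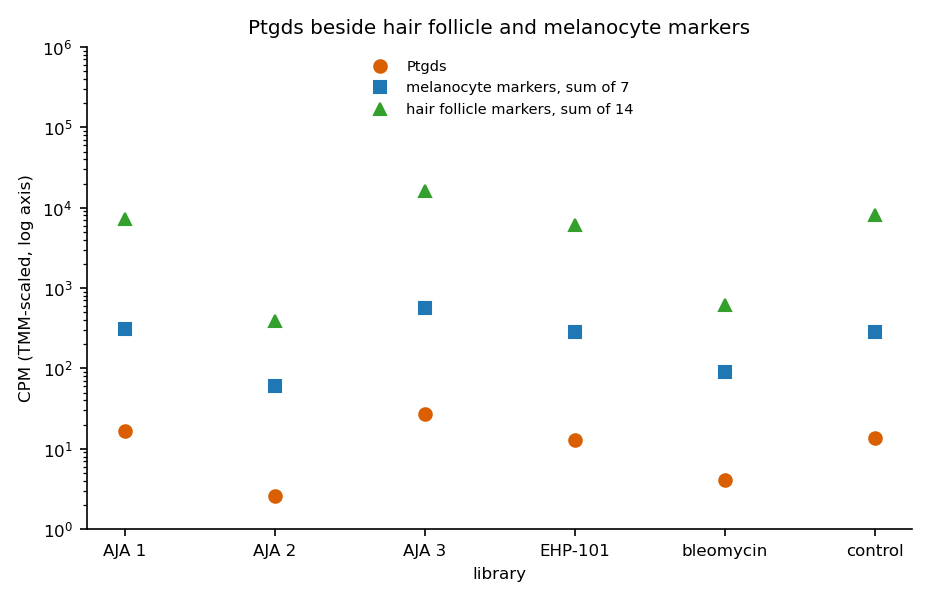
CPM (TMM-scaled, log axis) of Ptgds and summed CPM of 7 melanocyte and 14 hair follicle markers in the 3 AJA (ajulemic acid) libraries, EHP-101, bleomycin and control. All 3 measures are lowest in AJA replicate 2, at 2.58, 59.9 and 384 CPM, and highest in AJA replicate 3, at 27.1, 563 and 15996 CPM.

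Ptgis, the prostacyclin synthase of blood vessels (gene 19223, chromosome 2, 167203196 to 167240537), was at 1.98, 2.12 and 0.549 CPM with AJA, 0.976 CPM in EHP-101, 0.642 CPM in bleomycin and 2.497 CPM in control. Control was the highest library, and AJA replicate 3 lay below bleomycin. With 10 counts in bleomycin and 38 in control, the log2 fold change of bleomycin over control was -1.95 (SE 1.07), with a 95% interval of -4.73 to 0.84. Summed over 8 genes, endothelial markers were at 202, 205 and 150.5 CPM with AJA, 265 CPM in EHP-101, 251 CPM in bleomycin and 208 CPM in control. The endothelial sum and Ptgis were both lowest in AJA replicate 3, while in bleomycin, where Ptgis was also low, the endothelial sum was above that in control, and the part of vessels in the level of Ptgis was not tested.

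Hpgd, the 15-hydroxyprostaglandin dehydrogenase that inactivates prostaglandins (gene 15446, chromosome 8, 56294552 to 56321046), was at 12.7, 13.6 and 10.97 CPM with AJA, 11.7 CPM in EHP-101, 19.3 CPM in bleomycin and 14.8 CPM in control. All 3 AJA libraries and EHP-101 were below both control and bleomycin. The summed level of 8 fibroblast markers put the 6 libraries in the same order as Hpgd, at 4009, 5159 and 3440 CPM with AJA, 3853 CPM in EHP-101, 7011 CPM in bleomycin and 6685 CPM in control, and the part of this difference in that of Hpgd was not tested. The AJA mean was 12.4 ± 1.33 CPM (SD, n = 3), and the log2 fold change over bleomycin was -0.63 (SE 0.22), with a 95% interval of -1.20 to -0.06. This was the smallest p among the 10 genes in that comparison (unadjusted p = 0.0359), and it did not pass after adjustment over all genes (adjusted p = 0.998, edgeR). EHP-101 over bleomycin gave a log2 fold change of -0.72 (SE 0.28, unadjusted p = 0.0523, adjusted p = 0.9998 by edgeR).

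Both genes that start leukotriene synthesis were lowest in control skin, which was the lowest library in 22% of all genes tested. Alox5, the 5-lipoxygenase that starts leukotriene synthesis (gene 11689, chromosome 6, 116410071 to 116461178), was at 11.3, 13.0 and 8.83 CPM with AJA, 11.3 CPM in EHP-101, 13.2 CPM in bleomycin and 6.96 CPM in control. All 5 libraries of bleomycin-exposed skin were above control, and all 3 AJA libraries were below bleomycin, replicate 2 by little. The log2 fold change of bleomycin over control was 0.92 (SE 0.37), with a 95% interval of -0.04 to 1.87, an unadjusted p of 0.0560 and an adjusted p of 0.740 by edgeR.

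Alox5ap, the membrane protein FLAP that presents arachidonic acid to 5-lipoxygenase (gene 11690, chromosome 5, 149265058 to 149288047), was at 9.14, 11.5 and 9.28 CPM with AJA, 7.93 CPM in EHP-101, 10.3 CPM in bleomycin and 6.51 CPM in control. Here too control was the lowest library, while bleomycin lay inside the range of the AJA libraries. AJA over control gave a log2 fold change of 0.62 (SE 0.27), and bleomycin over control one of 0.66 (SE 0.32). Both genes are made by myeloid cells, and the summed level of 8 neutrophil markers was also lowest in control, at 22.2, 28.4 and 19.6 CPM with AJA, 17.1 CPM in EHP-101, 38.8 CPM in bleomycin and 12.2 CPM in control. Of these markers Ly6g was at 0 in every library. The 9 macrophage markers summed to 815, 1014 and 647 CPM with AJA, 637 CPM in EHP-101, 868 CPM in bleomycin and 750 CPM in control, so control was not the lowest there. Nor was it for 9 mast cell markers, at 150 CPM in control and 75.1 to 156 CPM over the libraries. The sum of 6 eosinophil markers was highest in control, at 5.85 CPM. The part of these cells in the level of Alox5 and Alox5ap was not tested. Alox5 and Alox5ap each share exon bases (435 and 189) with a gene on the opposite strand that has no symbol, and whether counting used the strand is not stated in the labels, so their levels are uncertain to that extent.

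Alox15, the 12/15-lipoxygenase of macrophages and eosinophils (gene 11687, chromosome 11, 70344147 to 70352031), was at 1.91, 4.01 and 3.09 CPM with AJA, 1.22 CPM in EHP-101, 2.05 CPM in bleomycin and 2.04 CPM in control. EHP-101 was the lowest library, and AJA replicate 1 lay just below bleomycin and control while the other 2 AJA libraries lay above them. The macrophage sum given above was likewise lowest in EHP-101 and highest in AJA replicate 2. In AJA replicate 3, however, that sum was close to EHP-101, at 647 against 637 CPM, while Alox15 was at 3.09 against 1.22 CPM. The sums of T cell markers (61.2 and 92.3 CPM) and sebaceous gland markers (309 and 775 CPM) had the same lowest and highest libraries. The summed level of 6 eosinophil markers was 3.14, 5.73 and 3.39 CPM with AJA, 2.32 CPM in EHP-101, 3.21 CPM in bleomycin and 5.85 CPM in control, also lowest in EHP-101 but highest in control, and the part of these cells in the level of Alox15 was not tested. The counts of Alox15 ran from 20 to 70, and the log2 fold change was 0.55 (SE 0.53) for AJA over bleomycin and -0.75 (SE 0.67) for EHP-101 over bleomycin.

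The first comparison asked how far bleomycin changed these genes. In the bleomycin library Alox5, Ptgs1, Ptges and Alox5ap were between 0.66 and 0.92 above control on the log2 scale, and Ptgis and Ptgds had log2 fold changes of -1.95 and -1.73. A log2 fold change above 0 was found for 7 of the 10 genes, with a median of 0.20, against 49.5% of all 17377 genes tested and a median of -0.01. By edgeR's quasi-likelihood test with Benjamini-Hochberg adjustment 0 of the 10 passed 0.05, against 0% of all genes. At an unadjusted p under 0.05, 0 of the 10 passed, against 6.8% of all genes. DESeq2 called 0 of the 10, against 0.95% of all genes, and limma 0 of the 10, against 0%. The test of a single library against another rests on the spread of the 3 AJA libraries, so leaving 1 of them out changes it. Without AJA replicate 3, 4 of the 10 had an unadjusted p under 0.05 (Ptgs1, Ptgis, Alox5 and Ptges, with adjusted p of 0.146 to 0.321 by edgeR), against 11.7% of all genes in that fit. Without replicate 2 there were 2, Ptgds (adjusted p = 0.208) and Alox5 (adjusted p = 0.353, both by edgeR), against 13.6% of all genes. Without replicate 1 there were 0.

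The second comparison asked what EHP-101 changed in bleomycin-exposed skin. A log2 fold change above 0 was found for 3 of the 10 genes, against 50% of all genes, and the median was -0.42 for the 10 and 0.00 for all genes. Hpgd, Ptges and Ptgs1 were lower in EHP-101 than in bleomycin by log2 fold changes of -0.72, -0.68 and -0.67, and Ptgds was higher by 1.65 (SE 1.63). edgeR called 0 of the 10 after adjustment, against 0% of all genes, and 0 at an unadjusted p under 0.05, against 1.89%. DESeq2 called 0 of the 10, against 0.0575% of all genes, and limma 0, against 0%. Without AJA replicate 3, 3 of the 10 had an unadjusted p under 0.05 in edgeR (Ptgs1, Ptges and Hpgd, with adjusted p of 0.849 to 0.968), against 5.03% of all genes in that fit. Without replicate 2 there were 2, Ptgds (adjusted p = 0.617) and Hpgd (adjusted p = 0.760, both by edgeR), against 6.54% of all genes. Without replicate 1 there were 0.

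The third comparison asked what ajulemic acid changed in bleomycin-exposed skin. Ptgs1, Ptges, Alox5 and Hpgd were below the bleomycin library in all 3 AJA libraries, and Ptgs2 was above it in all 3. All 3 libraries lay below bleomycin in 24.6% of all genes and above it in 22.9%, and the 4 and 1 of 10 are read against these shares. The median log2 fold change of the 10 was -0.04, with 4 positive, against a median of 0.02 and 52.8% positive over all genes. edgeR called 0 of the 10 after adjustment, against 0% of all genes, and 1 (Hpgd) at an unadjusted p under 0.05, against 3.83%. DESeq2 called 0 of the 10, against 0.587% of all genes, and limma 0, against 0%. Without AJA replicate 2, Ptgs2 (log2 fold change 1.01, adjusted p = 0.247), Ptgds (2.44, adjusted p = 0.116) and Hpgd (-0.69, adjusted p = 0.304) had an unadjusted p under 0.05 by edgeR, against 13.2% of all genes in that fit. Without replicate 1 none of the 10 did, against 1.83% of all genes, and without replicate 3 only Ptgis did (log2 fold change 1.66), against 4.22%. The log2 fold change of Ptgds, 1.93 with all libraries, was 1.23 without replicate 3.

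**Figure D4:**
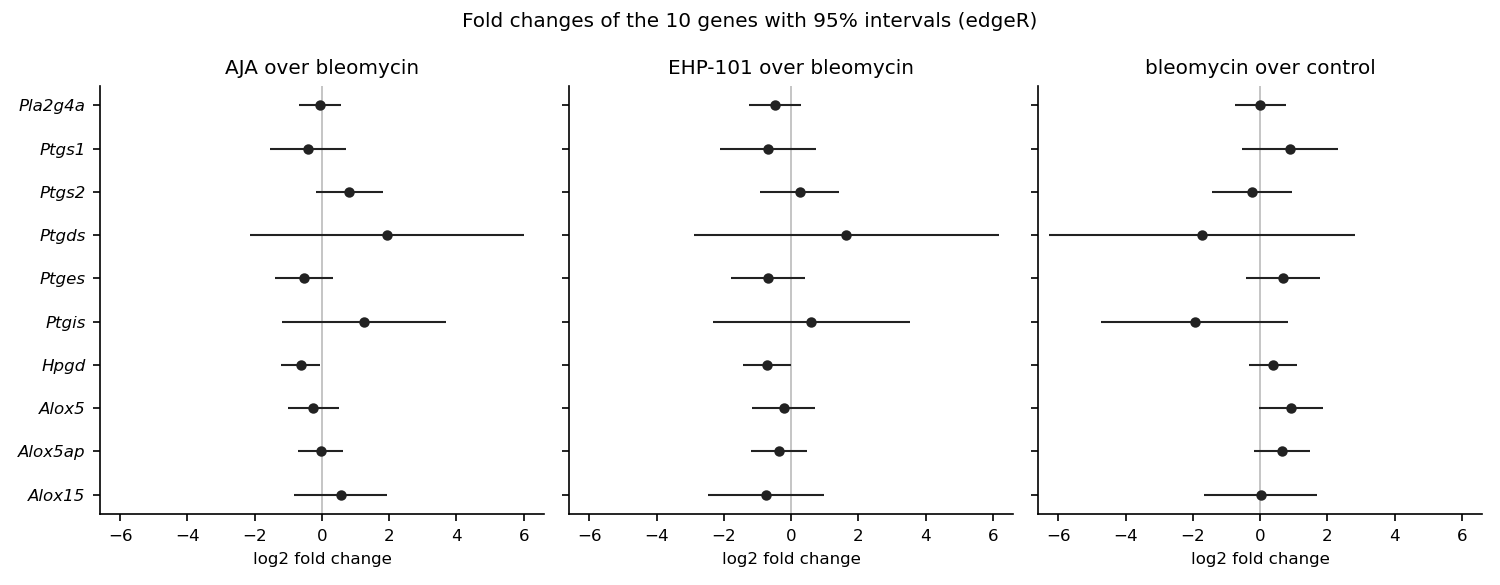
Log2 fold change (points) with 95% interval (lines) of each of the 10 genes for AJA (ajulemic acid) over bleomycin, EHP-101 over bleomycin and bleomycin over control, from edgeR's fit of all 6 libraries. The interval excludes 0 only for Hpgd in AJA over bleomycin, -1.20 to -0.06, and is widest for Ptgds.

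The 2 drugs were then set against each other, although the labels used here give no dose for either. Alox15 had the highest log2 fold change of AJA over EHP-101, 1.30 (SE 0.57), with a 95% interval of -0.17 to 2.77, and Ptgs2 and Pla2g4a followed Ptgis at 0.56 (SE 0.38) and 0.42 (SE 0.25). Alox5, Hpgd and Ptges were close, with log2 fold changes of -0.03 (95% interval -0.80 to 0.73), 0.08 (-0.51 to 0.68) and 0.14 (-0.76 to 1.04). All 3 AJA libraries were above EHP-101 for Ptgs2, Pla2g4a, Alox5ap and Alox15, a relation that 19.8% of all genes showed, and in none of the 10 were all 3 below, against 18.3%. Scaled by library size only, 3 of the 10 were above (Ptgs2 no longer), against 10% of all genes, and 0 below, against 29.9%. The log2 fold change was above 0 for 9 of the 10 genes (median 0.31), all but Alox5, against 54.5% of all genes (median 0.02). edgeR called 0 of the 10, against 0% of all genes, and 0 at an unadjusted p under 0.05, against 2.37%, while DESeq2 called 0, against 0.368%, and limma 0, against 0%. Without AJA replicate 2 the single gene with an unadjusted p under 0.05 in edgeR was Ptgs2 (adjusted p = 0.9996), against 4.84% of all genes. Without replicate 3 it was Ptgs1 (adjusted p = 0.930 by edgeR), against 5% of all genes, and without replicate 1 there were 0.

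Against control skin, AJA libraries were all above control for Ptgs2, Alox5 and Alox5ap, as in 26.9% of all genes, and all below it for Ptgis and Hpgd, as in 22.2%. The largest positive log2 fold changes of AJA over control were 0.66 (SE 0.31) for Alox5 and 0.62 (SE 0.27) for Alox5ap. EHP-101 over control gave 0.70 (SE 0.37) for Alox5, -1.35 (SE 1.02) for Ptgis and values between -0.74 and 0.29 for the others. Log2 fold changes above 0 were found for 7 of the 10 genes in AJA over control (median 0.33), against 54.9% of all genes (median 0.04), and for 5 of the 10 in EHP-101 over control (median -0.04), against 50.1% of all genes (median 0.00). edgeR called 0 of the 10 in AJA against control, against 0.0345% of all genes, and 0 at an unadjusted p under 0.05, against 7.12%, while DESeq2 called 0, against 1.59%, and limma 0, against 0%. In EHP-101 against control edgeR called 0 of the 10, against 0% of all genes, and 0 at an unadjusted p under 0.05, against 4.64%, while DESeq2 called 0, against 0.691%, and limma 0, against 0%. In AJA against control, Ptgs1 (adjusted p = 0.163) and Alox5 (adjusted p = 0.318) had an unadjusted p under 0.05 in edgeR without AJA replicate 3, against 11.1% of all genes, and Ptgs2 (adjusted p = 0.479) without replicate 2, against 10.1%. Without replicate 1 there were 0 in either comparison with control. These comparisons share libraries with the preceding ones.

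The other genes of the pathway were read from a list of 68 further genes, of which 63 passed the filter on low counts. By edgeR 0 of the 63 passed after adjustment in any of the 6 comparisons. At an unadjusted p under 0.05, 4 were higher and 0 lower in bleomycin against control, 0 higher and 3 lower in EHP-101 against bleomycin, and 1 higher and 5 lower in AJA against bleomycin. There were 0 higher and 1 lower in AJA against EHP-101 and in EHP-101 against control, and 0 higher and 4 lower in AJA against control. Over all 17377 genes the counts were 817 higher and 365 lower in bleomycin against control, 100 and 229 in EHP-101 against bleomycin, 108 and 558 in AJA against bleomycin, 69 and 343 in AJA against EHP-101, 508 and 298 in EHP-101 against control, and 524 and 713 in AJA against control. The shares of the 63 at this p are read against these and the percentages given above. The median log2 fold change of the 63 was 0.10 in bleomycin over control, -0.17 in EHP-101 over bleomycin and -0.10 in AJA over bleomycin. DESeq2 called 1 of the 63, Akr1c18 in EHP-101 against control (log2 fold change -3.29, adjusted p = 0.0355), for which edgeR gave an adjusted p of 0.951, while DESeq2 called 0.691% of all genes there. limma called 0.

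Several of these genes shared the pattern of Ptgds. Alox8, the mouse 8-lipoxygenase, was at 29.0, 3.61 and 66.1 CPM with AJA, 27.5 CPM in EHP-101, 3.98 CPM in bleomycin and 36.2 CPM in control. Ggt1, a gamma-glutamyl transferase that converts leukotriene C4 to D4, was at 13.6, 0.803 and 27.0 CPM with AJA, 13.9 CPM in EHP-101, 1.80 CPM in bleomycin and 17.5 CPM in control. In both genes the lowest libraries were AJA replicate 2 and bleomycin, which were also the lowest in hair follicle markers, and the part of that tissue in their levels was not tested. The phospholipases Pla2g4c and Pla2g4b and the receptor Gpr37 had the same 2 lowest libraries and the same highest one, AJA replicate 3, with 18.0, 38.2 and 13.0 CPM there and 1.67, 9.69 and 5.26 CPM in bleomycin. With 1 AJA library near bleomycin and 2 far above it, the log2 fold changes of AJA over bleomycin had wide errors, for example 3.05 (SE 1.89) for Alox8 and 2.94 (SE 2.13) for Ggt1.

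Pla2g4e, Mgst2 and Aloxe3 were highest in the bleomycin library, as were 17% of all genes tested. The phospholipase Pla2g4e was at 18.0, 18.6 and 25.9 CPM with AJA, 19.3 CPM in EHP-101, 37.4 CPM in bleomycin and 16.0 CPM in control, so that bleomycin stood above all the other libraries. Mgst2, a microsomal glutathione transferase that can form leukotriene C4, was at 3.68, 3.73 and 3.69 CPM with AJA, 2.38 CPM in EHP-101, 8.86 CPM in bleomycin and 4.01 CPM in control. Its log2 fold change was -1.26 (SE 0.25, unadjusted p = 0.00457, adjusted p = 0.491 by edgeR) for AJA over bleomycin and -1.89 (SE 0.34, unadjusted p = 0.00296, adjusted p = 0.9998 by edgeR) for EHP-101 over bleomycin. Aloxe3, an epidermal lipoxygenase of barrier formation, was at 69.1, 57.7 and 31.1 CPM with AJA, 40.6 CPM in EHP-101, 72.5 CPM in bleomycin and 36.8 CPM in control. Alox12e, another epidermal lipoxygenase, was at 137, 151 and 79.4 CPM with AJA, 102 CPM in EHP-101, 131 CPM in bleomycin and 64.9 CPM in control, so here bleomycin lay inside the AJA range and control was the lowest. Without AJA replicate 3 edgeR called Alox12e higher with AJA than in control (log2 fold change 1.15, adjusted p = 0.0341), which is 1 of 63, against 2.12% of all genes called in that fit. Alox12e and Aloxe3 were high in the 3 libraries that were high in the suprabasal keratinocyte sum given above. Those libraries were also the highest in the basal keratinocyte, macrophage, neutrophil and T cell sums, and the part of these differences in the levels of both genes was not tested. Without AJA replicate 2 edgeR called Cyp4f14, a cytochrome P450 of the leukotriene list that is known from liver, lower with AJA than in control (log2 fold change -4.54, adjusted p = 0.0478), again 1 of 63, against 1.25% of all genes. Cyp4f14 had between 1 and 5 counts in the AJA libraries, 13 in EHP-101, 33 in bleomycin and 32 in control. Hepatocyte markers were lower in the AJA libraries in the same comparison, as given above, and their part in the level of Cyp4f14 was not tested.

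Further genes with the largest fold changes were Akr1c18, Dpep1, Dpep2, Cyp4f18, Slco2a1 and Gpr17. Akr1c18, an aldo-keto reductase of prostaglandin and steroid metabolism, was at 9.34, 20.4 and 5.54 CPM with AJA, 3.17 CPM in EHP-101, 17.1 CPM in bleomycin and 30.7 CPM in control, with EHP-101 the lowest library and control the highest. The dipeptidases Dpep1 and Dpep2, which act on leukotriene D4, were at 12.6 and 9.75 CPM in bleomycin and 25.5 and 4.73 CPM in control, so they differed in opposite directions. Slco2a1, the prostaglandin transporter, was at 38.1, 33.1 and 39.9 CPM with AJA, 45.03 CPM in EHP-101, 52.1 CPM in bleomycin and 40.9 CPM in control, so all 3 AJA libraries were below bleomycin. The leukotriene omega-hydroxylase Cyp4f18 and the receptor Gpr17 were low, at no more than 1.73 and 6.44 CPM in any library.

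By role, the 6 genes of prostaglandin clearance and transport all had negative log2 fold changes in AJA over bleomycin (median -0.39). Of 10 genes of the prostanoid receptor list 9 were tested and 8 of these had positive ones (median 0.04). The 8 include Ptgfrn (0.03), which is not itself a prostanoid receptor, and values as small as 0.01 for Ptger3 (SE 0.41) and Ptgdr (SE 0.61). In bleomycin over control the log2 fold change was above 0 for 7 of 8 genes of the lipoxygenase list (median 0.78), with Alox8 the exception. That list counts Alox5ap (0.66), which is not itself a lipoxygenase, and its positive values include that of Alox15, at only 0.01 (SE 0.65). The log2 fold change was below 0 for 8 of 13 prostanoid synthesis genes (median -0.38). Of 7 receptors for resolving mediators 6 were tested, with a median of 0.18 in bleomycin over control, and 5 of 6 had a negative log2 fold change in AJA over bleomycin (median -0.10). The corresponding medians over all genes tested were 0.02 in AJA over bleomycin and -0.01 in bleomycin over control. The log2 fold change was above 0 for 52.8% and 49.5% of all genes in these comparisons. Genes of these lists include the 10 described above, and edgeR called 0 genes in each list in both comparisons.

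**Figure D5:**
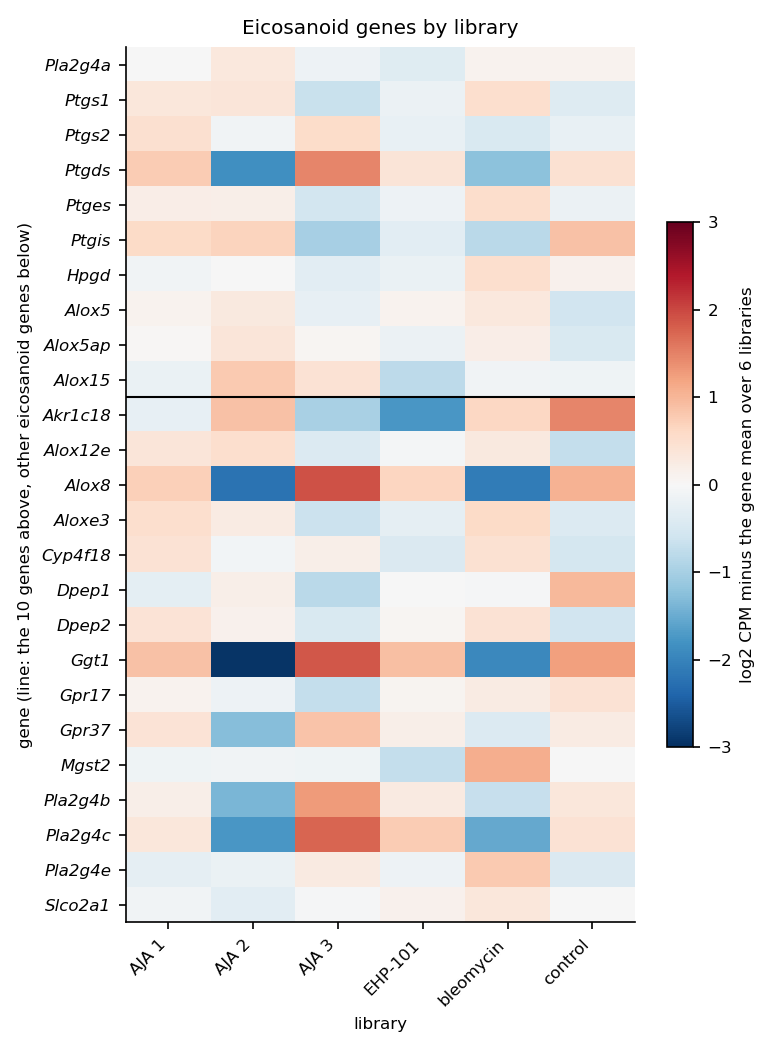
Log2 CPM of 25 eicosanoid genes minus the mean of each gene over the 6 libraries (colour scale from -3 to 3), with the 10 genes above the line and 15 others below it, in the 3 AJA (ajulemic acid) libraries, EHP-101, bleomycin and control. Ptgds, Alox8, Ggt1, Pla2g4b and Pla2g4c share low values in AJA replicate 2 and bleomycin.

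Among the members whose log2 CPM averaged 2 or more, Ptgds, Ptgs1 and Ptges had the widest ranges over the libraries, 3.31, 1.18 and 1.06 on the log2 scale. The genes whose log2 CPM followed each of these most closely over the 6 libraries, among 12765 genes, were found by Pearson's r as a measure of likeness. For Ptgds they were Tyrp1, a melanosomal enzyme, with r = 0.9995, Jpt2 with 0.999 and the kinase Src with 0.998. Tyrp1 was at 78.8, 15.5 and 127 CPM with AJA, 65.7 CPM in EHP-101, 22.0 CPM in bleomycin and 68.7 CPM in control. For Ptgs1 they were Srgap2, Oas1f and Galnt7, each with r of at least 0.996, and for Ptges they were Igfbp3, Golgb1 and Gpld1, with r of at least 0.986. With only 6 libraries and so many genes compared, they are given as a description.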

How the data were processed

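The submitters' processing notes name the build mm10 and these tools: featureCounts 1.6.1, DESeq2 1.20.0, HISAT2 2.1.0 and Trimmomatic 0.36. Per the labels' protocols, 300 ng of total RNA went into stranded libraries read as 50 bp single ends. The authors deposited raw counts per gene, with exon length. How counting treated strand and multi-mapped reads is not stated there. The 6 libraries had the same counts in both deposited tables (0 differing values), and 6 other sample columns of the merged table were not used. Symbols came from RefSeq (GRCm38.p6), which matched 25275 of 27179 gene numbers.

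Counts were tested with edgeR 4.0.16 in R 4.3.3: filterByExpr (minimum count 10, 17377 genes), TMM, 1 fit of all 6 libraries by group, robust quasi-likelihood F-tests (two-sided) and Benjamini-Hochberg adjustment over all genes at 0.05. The 2 residual degrees of freedom come from the AJA libraries alone, so that each single library is taken to spread as they do. The SE is the absolute log2 fold change over the square root of F, and 95% intervals use the moderated degrees of freedom. Log2 CPM used a prior count of 3. The script was tested on simulated counts with the same spread for every gene and no outlying library. That test does not cover genes whose AJA libraries lie far apart. DESeq2 1.42.0, limma 3.58.1, other scalings and filters, a fit without the robust option, and leaving out each AJA library were alternatives. The genes, lists and tests were chosen with earlier results of these data known. All 10 genes were named; further genes were named if called, or if among the 5 largest fold changes per direction (log2 CPM averaging 0 or more) in the 3 bleomycin comparisons. The 3 genes of highest r were named for the 3 members of widest range.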

Additional observations from a re-analysis of the deposited data

How the results depend on the processing

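The count of the 10 genes called after adjustment was 0 in each of the 6 comparisons under edgeR's main settings and under each of the 12 alternatives, with adjusted p of at least 0.116 (0.146 in bleomycin against control). Of the 60 log2 fold changes recomputed per setting, the sign changed in 1 with DESeq2 and with RLE factors, 2 with library size only and with limma, 1 without AJA replicate 1, 6 without replicate 2, 6 without replicate 3 and 0 under the other settings; the cause was not tested. Under DESeq2 and under RLE factors, Ptges in EHP-101 against control was -0.009. With library size only, Hpgd in AJA against EHP-101 was -0.016 and Ptgds in EHP-101 against control 0.044. With limma, Ptgds was -0.25 in AJA against EHP-101 and -0.34 in AJA against control. Leaving out each AJA replicate in turn gave Ptgds -0.42 to 0.76 in AJA against EHP-101 and -0.51 to 0.65 in AJA against control. Pla2g4a ran from -0.057 to 0.009 in bleomycin against control, -0.18 to 0.052 in AJA against bleomycin and -0.24 to 0.059 in AJA against control. Ptges ran from -0.030 to 0.003 in EHP-101 against control and -0.016 to 0.35 in AJA against control. In AJA against EHP-101, Alox5 ran from -0.19 to 0.105 and Hpgd from -0.008 to 0.165. Alox5ap ran from -0.145 to 0.018 in AJA against bleomycin, Alox15 from -0.053 to 0.012 in bleomycin against control and Ptgs2 from -0.013 to 0.019 in EHP-101 against control.

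No paired analysis was possible because the groups share only the replicate number 3. Depth limits Ptgis and Alox15 most, with as few as 10 and 20 counts in a library. With only 1 library used in 3 of the 4 groups, a difference that did not pass is not shown to be absent.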
